A study of Mus musculus with 2 samples.

Results

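The genes described here are 9 members of the neurotrophin and GDNF families: the receptors Ntrk2, Ntrk3 and Ngfr, the receptor Ret with its co-receptors Gfra1, Gfra2 and Gfra3, and the ligands Bdnf and Ntf3. They were taken by their symbols from the 32285 genes of the deposited feature lists, and all 9 were found. The study measured single cells of dorsal root ganglia (DRG), the clusters of sensory neurons and their glia beside the spinal cord. Ganglia of lumbar levels L4 and L5 came from naive C57BL/6 female mice aged 3 months, were dissociated with papain and collagenase, sorted for live cells and run as 2 samples (replicate 1 and replicate 2) on the 10x Genomics 3′ platform. No treatment, genotype or age was compared, so the comparisons the design allows are those between cell types within these samples. The sources used here do not say how many mice went into each sample, so the p-values below measure the spread between 2 samples.

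Neurotrophins are secreted proteins that keep sensory neurons alive and shape their axons. Each binds a receptor tyrosine kinase of the Trk family: TrkB, made by Ntrk2, binds BDNF, and TrkC, made by Ntrk3, binds NT-3, the product of Ntf3. The receptor p75NTR, made by Ngfr, binds all neurotrophins. Ligands of the GDNF family use another kinase, RET, and reach it through a co-receptor anchored in the membrane: GFRα1 prefers GDNF, GFRα2 neurturin and GFRα3 artemin. In the DRG these receptors are known as marks of neuron classes, with RET in many nociceptors, TrkB in some mechanoreceptors and TrkC in proprioceptors. TrkB and TrkC also exist as short forms without a kinase.

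Values are numbers of unique molecular identifiers (UMIs), each standing for 1 captured RNA molecule. They were summed over the cells of a type in a sample and are given as counts-per-million (CPM) of the UMIs of that profile, scaled between profiles by TMM unless stated. Because the kit captures RNA from its 3′ end, a level is that of the gene and not of a form of it, and levels of different genes are not compared. The files held 119101743 and 128668771 UMIs, and 16723 cells were retained. Clusters were formed without the 9 genes and named from markers, each name being a likeness to that type: 7173 satellite glial cells (SGCs, the glia that wrap neuron bodies), 1260 non-myelinating and 3326 myelinating Schwann cells, 524 neurons, 1300 fibroblasts, 735 mural cells, 467 macrophages and 433 endothelial cells. The profiles summed from these cells held from 3124024 UMIs in macrophages of replicate 2 to 57342394 in SGCs of replicate 2. Another 1505 cells stayed unnamed or outside these profiles.

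The 2 samples shared barcodes, and the shared cells were mostly shallow neurons. A cell's barcode held a median of 0.539% of its UMIs in the other sample. In 206 cells, 1.23% of those retained, it held at least 10%. Of the 420 neurons with up to 20000 UMIs (median 823.5), 170 were such cells, or 40.5%. None of the 104 neurons above 20000 UMIs met this rule. The 170 shared shallow neurons were 85 in each sample. Of these, 59 carried a barcode with more than 20000 UMIs in the other sample, where its cell type was not checked. In 105 of the 170, the barcode's UMIs in the 2 samples were within a factor of 2 of each other. The deep neurons, 53 and 51 in the samples with a median of 107200.5 UMIs, carried most of the neuronal counts. Whether the shared barcodes bear on the shallow neurons' levels was not tested beyond leaving these cells out, which gave 24 higher and 26 lower calls where all cells gave 24 and 27 in the comparison that follows.

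Each of the 9 genes had at least 1 type in which it was higher than the mean of the other 7 types. That mean is the equally weighted mean of log2 levels, so a type called higher need not exceed the plain average of CPM. The share of all genes with at least 1 higher call was not counted. Over 9 genes and 8 types, 24 differences were higher and 27 lower in edgeR's quasi-likelihood test at an adjusted p of 0.05. Such calls are common in these data, so each count is given with the share of all 18036 genes tested that were called the same way. In neurons 6 of 9 were higher against 35.6% of all genes, and 1 was lower against 32.4%. In mural cells, the muscle cells and pericytes around vessels, 6 were higher against 21% and 2 lower against 18.4%. In non-myelinating Schwann cells 5 were higher against 18.1% and 1 lower against 17.6%. These 3 types held most of the higher calls. In fibroblasts 3 were higher against 26.5% and 1 lower against 20.4%. In SGCs 2 were higher against 30.2% and 4 lower against 24.9%. In myelinating Schwann cells 1 was higher against 25.9% and 6 lower against 25.5%. In endothelial cells 1 was higher against 26.1% and 7 lower against 26.4%. In macrophages none was higher, against 26.9%, and 5 were lower against 21.1%. Between pairs of types, 162 of 252 differences of these genes passed in either direction, against 51% over all genes and the 28 pairs, a share that ran from 30.5% to 66% by pair.

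**Figure D1:**
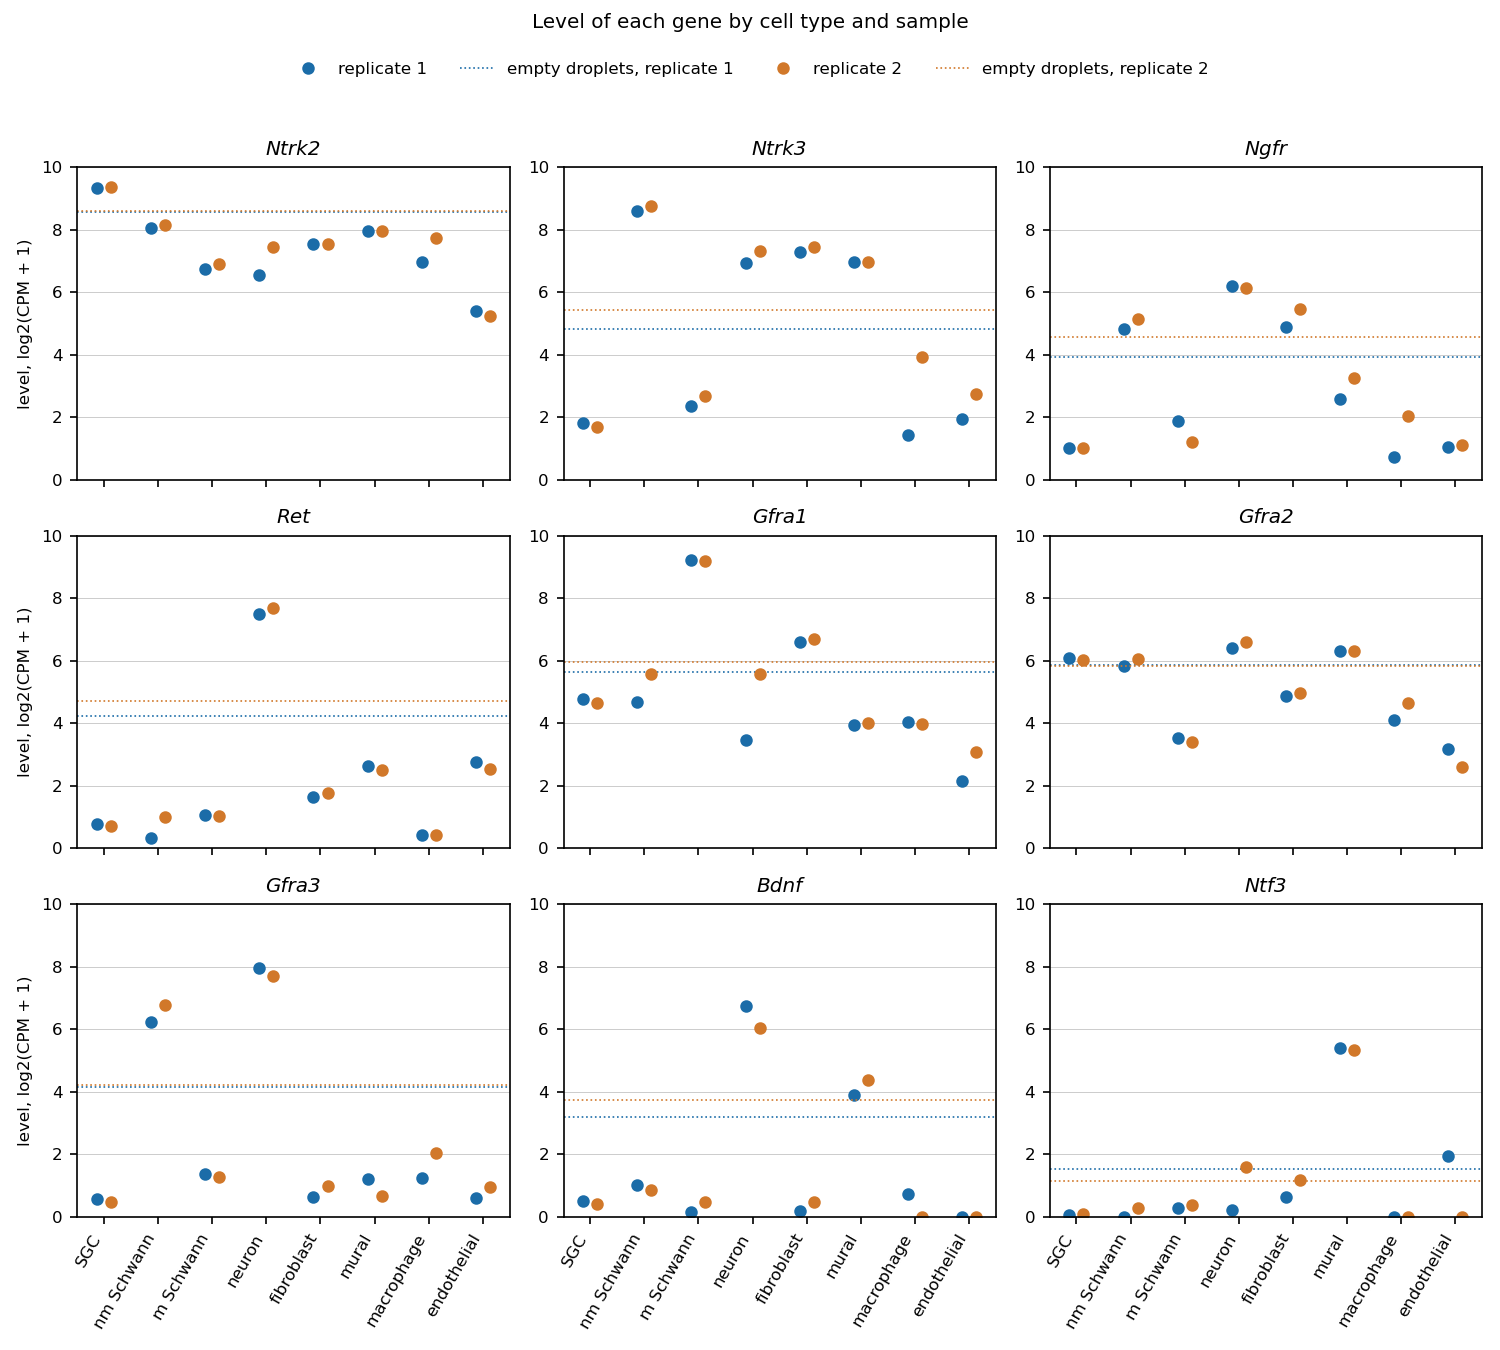
Level of each of the 9 genes, as log2(CPM + 1), in each cell type. Points are the 2 samples (blue replicate 1, orange replicate 2) and dotted lines the level in empty droplets of the same sample. Ntrk2 was highest in SGCs at 639 and 663 CPM, Gfra1 in myelinating Schwann cells at 597 and 579 CPM, Ntrk3 in non-myelinating Schwann cells at 385 and 427 CPM, Ret, Gfra3 and Bdnf in neurons, and Ntf3 in mural cells at 41.3 and 39.6 CPM.

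Ntrk2, which encodes the BDNF receptor TrkB, was above all a gene of SGCs in this count. Its level there was 639 and 663 CPM, against 264 and 285 CPM in non-myelinating Schwann cells, the next type in order. The samples of these types did not overlap. The log2 difference between them was 1.25 ± 0.23 (SE, adjusted p = 0.000415), and that between SGCs and the mean of all other types was 2.19 ± 0.14 (adjusted p = 1.64e-09). To compare cells at 1 depth, 1000 UMIs were drawn at random from each (thinning). An Ntrk2 UMI was then left in 40.4% of the SGCs of replicate 1 (95% exact interval 38.8 to 42.0) and in 41.4% of those of replicate 2 (39.7 to 43.0). Endothelial cells, the type with the lowest level, gave 3.11% and 5.0%. Their median depth, 16191 and 15138 UMIs, was near that of SGCs at 14507 and 15478.5 UMIs. Without thinning, 97.8% and 98.5% of SGCs held a UMI. Intervals of this kind cover counting error only.

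Below SGCs the level of Ntrk2 fell in small steps. Mural cells had 249 CPM in each sample and fibroblasts 186 CPM in each. Neurons had 92.1 and 174 CPM and macrophages 122 and 212 CPM. The samples of macrophages overlapped those of neurons and of fibroblasts, and neurons did not overlap fibroblasts. No step of the order from non-myelinating Schwann cells down to myelinating Schwann cells, with 105 and 118 CPM, passed the test between neighbours, although these ends of the order differed by 1.30 ± 0.23 (adjusted p = 0.000288). Endothelial cells, at 41.2 and 36.4 CPM, lay below myelinating Schwann cells by a log2 difference of 1.52 ± 0.26 (adjusted p = 0.000103). Against the mean of the others, non-myelinating Schwann cells (0.76 ± 0.16) and mural cells (0.60 ± 0.17) were higher and neurons lower (−0.43 ± 0.18, adjusted p = 0.046). The neuronal call was kept in 6 of 18 other ways of processing, and its sign turned (0.90) when types were called from pairs of markers in each cell, which left 1 sample with neurons. The mural call was lost without the mural profile of replicate 1 (adjusted p = 0.0785) and without that of replicate 2 (adjusted p = 0.0752).

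Ntrk2 also stood at 373 and 383 CPM in empty droplets, above every type but SGCs, so its counts were set beside those of Fabp7, a fatty acid binding protein used as the SGC marker. For every 100 Fabp7 UMIs there were 5.69 and 5.74 Ntrk2 UMIs in SGCs and 4.53 and 4.93 in empty droplets. Macrophages gave 5.72 and 6.10 and endothelial cells 6.77 and 6.78, close to the ratio in SGCs. The other types lay apart: 12.1 and 12.3 in non-myelinating Schwann cells, 38.5 and 31.3 in myelinating Schwann cells, 37.7 and 27.8 in fibroblasts and 24.6 and 24.2 in mural cells. Neurons gave 18.1 and 22.2. When cells called doublets were removed, unscaled Ntrk2 moved from 251 and 256 CPM to 217 and 214 CPM in mural cells and from 43.2 and 37.5 CPM to 11.6 and 16.7 CPM in endothelial cells. The macrophage and endothelial levels of Ntrk2 moved with an SGC marker, and the part of SGC RNA in them was not tested.

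**Figure D2:**
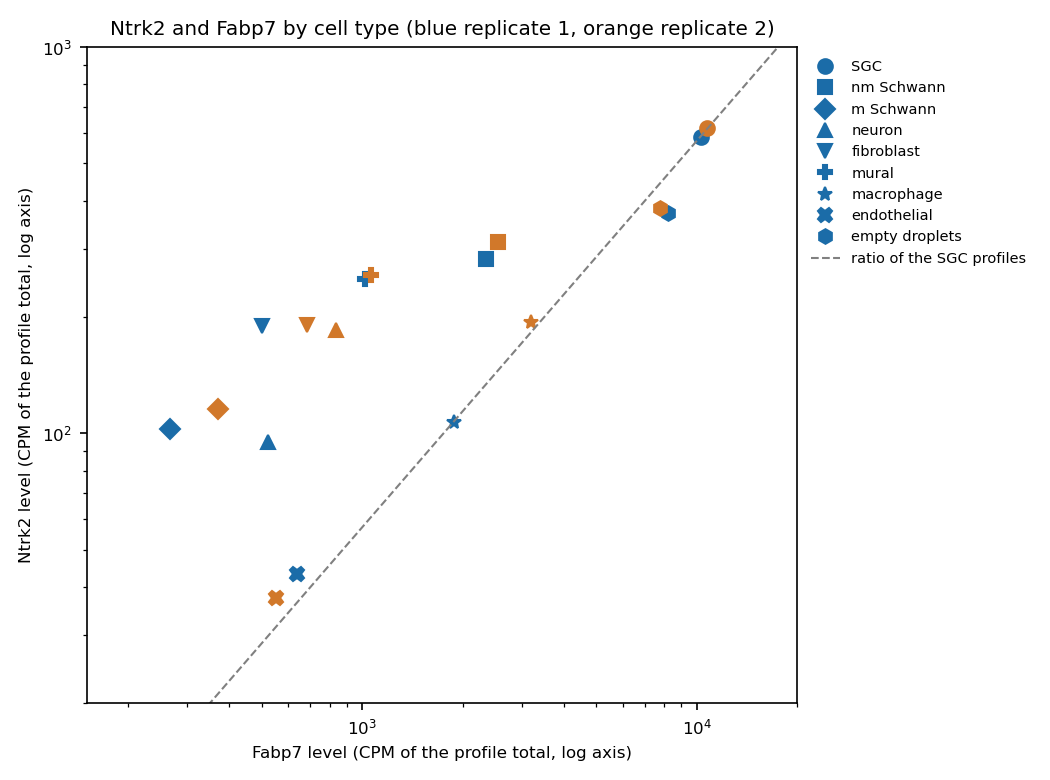
Ntrk2 against Fabp7 in each profile and in empty droplets, both as CPM of the profile's own total on log axes (blue replicate 1, orange replicate 2). The dashed line is the ratio in the SGC profiles. Macrophages (5.72 and 6.10 Ntrk2 UMIs for every 100 of Fabp7) and endothelial cells (6.77 and 6.78) lie near it, and Schwann cells, neurons, fibroblasts and mural cells lie above it.

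Ntrk3, the gene of the NT-3 receptor TrkC, was highest in non-myelinating Schwann cells, at 385 and 427 CPM. Fibroblasts followed at 154 and 172 CPM, neurons at 121 and 158 CPM and mural cells at 123 and 125 CPM. The first step, from non-myelinating Schwann cells to fibroblasts, was a log2 difference of 1.31 ± 0.22 (adjusted p = 0.000138). Fibroblasts, neurons and mural cells were not told apart by the test, and the samples of neurons overlapped those of each. A wide step separated mural cells from the rest, 3.98 ± 0.36 above macrophages (adjusted p = 1.26e-07). The 4 low types held at most 14.3 CPM, a level of replicate 2 macrophages, where replicate 1 had 1.66 CPM. Glia were divided by this gene: SGCs, at 2.48 and 2.17 CPM, lay below the mean of the other types by 4.13 ± 0.26 on the log2 scale (adjusted p = 1.28e-09), and myelinating Schwann cells, at 4.08 and 5.41 CPM, 2.95 ± 0.29 below. Both calls were lost with types from marker pairs (−1.26 and −1.48, adjusted p = 1 for each). In cells thinned to 1000 UMIs an Ntrk3 UMI was found in 29.2% (25.6 to 33.1) and 33.4% (29.8 to 37.2) of non-myelinating Schwann cells and in 0.327% and 0.0286% of SGCs, which were the deeper cells.

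Ngfr, the gene of p75NTR, was highest in neurons, at 72.9 and 69.6 CPM. Fibroblasts had 28.7 and 42.7 CPM and non-myelinating Schwann cells 27.4 and 34.1 CPM, and these overlapped. Neurons lay above fibroblasts by a log2 difference of 0.98 ± 0.19 (adjusted p = 0.000256). That call was lost when cells above 46305 UMIs were removed, a limit below the median of the deep neurons (0.80, adjusted p = 0.0576), and with types from marker pairs (0.28, adjusted p = 0.961). Non-myelinating Schwann cells lay above mural cells, at 4.91 and 8.5 CPM, by 2.22 ± 0.31 (adjusted p = 2.56e-05). In the remaining types, SGCs included, Ngfr did not exceed 3.13 CPM, below the 14.2 and 22.4 CPM of empty droplets.

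Ret, the signalling receptor of the GDNF family, was a gene of neurons. It stood at 179 and 204 CPM there, from 1142 and 1228 UMIs, and at no more than 5.73 CPM in any other type. Neurons lay above endothelial cells, the next in order, by a log2 difference of 5.19 ± 0.15 (adjusted p = 9.53e-14), a 36.5-fold ratio of mean levels. Glia were low, with 0.687 and 0.618 CPM in SGCs, 1.10 and 1.03 CPM in myelinating and 0.251 and 1.00 CPM in non-myelinating Schwann cells, from 1 and 5 UMIs in the last, and macrophages had 1 UMI in each sample. Empty droplets held 17.6 and 25.1 CPM, more than any type but neurons.

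Among the low types, Ret was not spread evenly. Endothelial cells had 5.73 and 4.77 CPM and mural cells 5.16 and 4.69 CPM. Each lay above the mean of the other types by 1.17 ± 0.24 and 1.08 ± 0.25 on the log2 scale (adjusted p = 0.000529 and 0.00246). As that mean is of log2 levels, neither type reached the plain mean of CPM, which neurons raise. Mural cells also lay above fibroblasts, at 2.08 and 2.41 CPM, by 1.12 ± 0.28 (adjusted p = 0.00479). A Ret UMI was found in 10.3% (6.38 to 15.4) and 7.56% (4.54 to 11.7) of endothelial cells of all depths and in 0.40% and 0.461% of macrophages. Macrophages were somewhat shallower, with medians of 11540 and 11535 UMIs against 16191 and 15138. After thinning to 1000 UMIs a Ret UMI was left in 2 of 193 and 2 of 220 endothelial cells and in 0 of 245 and 0 of 211 macrophages, which allows a share of up to 1.22% and 1.42% of cells with a UMI at that depth and sets no limit on cells expressing the gene. The mural call was lost without the replicate 1 mural profile (adjusted p = 0.0611). With types from marker pairs the endothelial call (1.14, adjusted p = 0.0609) and the mural call (0.97, adjusted p = 0.163) were both lost.

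Gfra1, the co-receptor of GDNF, marked myelinating Schwann cells. Its level there was 597 and 579 CPM, from 5992 and 6206 UMIs, against 95.3 and 103 CPM in fibroblasts. The log2 difference between these types was 2.57 ± 0.35 (adjusted p = 9.48e-06), and that against the mean of all other types was 4.70 ± 0.21 (adjusted p = 2.17e-11). Fibroblasts in turn lay above non-myelinating Schwann cells, at 24.6 and 46.7 CPM, by 1.45 ± 0.39 (adjusted p = 0.00636), a call lost without the replicate 1 profile (non-myelinating Schwann cells minus fibroblasts −1.16, adjusted p = 0.141). Neurons ranged from 9.87 CPM in replicate 1 to 46.8 CPM in replicate 2. SGCs had 26.0 and 23.8 CPM, below the 49.1 and 61.3 CPM of empty droplets. In cells thinned to 1000 UMIs a Gfra1 UMI was found in 37.4% (35.0 to 39.8) and 36.5% (34.2 to 38.9) of myelinating Schwann cells, against 2.34% and 2.11% of SGCs.

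Gfra2, the co-receptor of neurturin, was highest in 4 types. Neurons had 82.6 and 95.7 CPM, mural cells 78.0 and 78.2 CPM, SGCs 66.2 and 63.2 CPM and non-myelinating Schwann cells 56.0 and 65.3 CPM. No neighbours among these 4 types passed the test, although the samples of neurons and of non-myelinating Schwann cells, the ends of this order, did not overlap. Each of the 4 was above the mean of the other 7, by 1.70 ± 0.093, 1.49 ± 0.10, 1.17 ± 0.085 and 1.07 ± 0.10 on the log2 scale. With types from marker pairs the neuronal call was lost (0.69, adjusted p = 0.832). Non-myelinating Schwann cells then lay above fibroblasts, at 28.3 and 30.1 CPM, by 1.06 ± 0.14 (adjusted p = 8.93e-06). Macrophages, myelinating Schwann cells and endothelial cells followed in that order, and each step down passed the test. That from fibroblasts to macrophages, 0.55 ± 0.17 (adjusted p = 0.0142), was lost without the replicate 1 profiles and at clustering resolutions of 0.4 and 1.2. Empty droplets held 56.8 and 55.5 CPM, close to the level in non-myelinating Schwann cells.

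Gfra3, the co-receptor of artemin, was found in neurons and non-myelinating Schwann cells. Neurons had 246 and 208 CPM and non-myelinating Schwann cells 74.0 and 108 CPM. These 2 types differed by 1.31 ± 0.14 on the log2 scale (adjusted p = 7.91e-07). In every other type the level was at most 3.13 CPM, and the step from non-myelinating Schwann cells to macrophages was 5.37 ± 0.30 (adjusted p = 5.12e-10), a 40.8-fold ratio of mean levels. Empty droplets held 16.7 and 17.4 CPM. Thinned to 1000 UMIs, 8.21% (6.11 to 10.7) and 12.1% (9.71 to 14.8) of non-myelinating Schwann cells held a Gfra3 UMI, against 1 of 1627 and 2 of 1664 myelinating Schwann cells of similar depth. The lead of neurons over non-myelinating Schwann cells rested on the deep neurons: with neurons up to 20000 UMIs alone the log2 difference, non-myelinating Schwann cells minus neurons, was 0.00502 (adjusted p = 1), and with types from marker pairs it was 3.86 (adjusted p = 0.00696).

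Both ligand genes had their highest levels in types other than the glia. Bdnf stood at 106 and 64.8 CPM in neurons and at 13.7 and 19.6 CPM in mural cells. The log2 difference was 2.37 ± 0.25 (adjusted p = 8.73e-07), and without cells above 46305 UMIs it was 0.69 (adjusted p = 0.224). With types from marker pairs it was 1.01 (adjusted p = 0.553). Mural cells lay above non-myelinating Schwann cells, at 1.00 and 0.802 CPM, by 4.20 ± 0.53 (adjusted p = 1.08e-05). No Bdnf UMI was found in endothelial cells, so the level in neurons was at least 117-fold higher, taking 3 UMIs per sample as the floor. In SGCs it was 0.420 and 0.318 CPM. Empty droplets held 8.02 and 12.2 CPM, less than mural cells.

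Ntf3 was a gene of mural cells. It stood there at 41.3 and 39.6 CPM, from 160 and 135 UMIs, and in no other type above 2.87 CPM. That next level, in endothelial cells of replicate 1, rested on 11 UMIs, and replicate 2 had none. Mural cells lay above endothelial cells by a log2 difference of 4.90 ± 0.64 (adjusted p = 1.47e-05). Macrophages had no Ntf3 UMI in either sample, which makes mural cells at least 39.6-fold higher against a floor of 3 UMIs per sample. Empty droplets held 1.85 and 1.22 CPM.

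**Figure D3:**
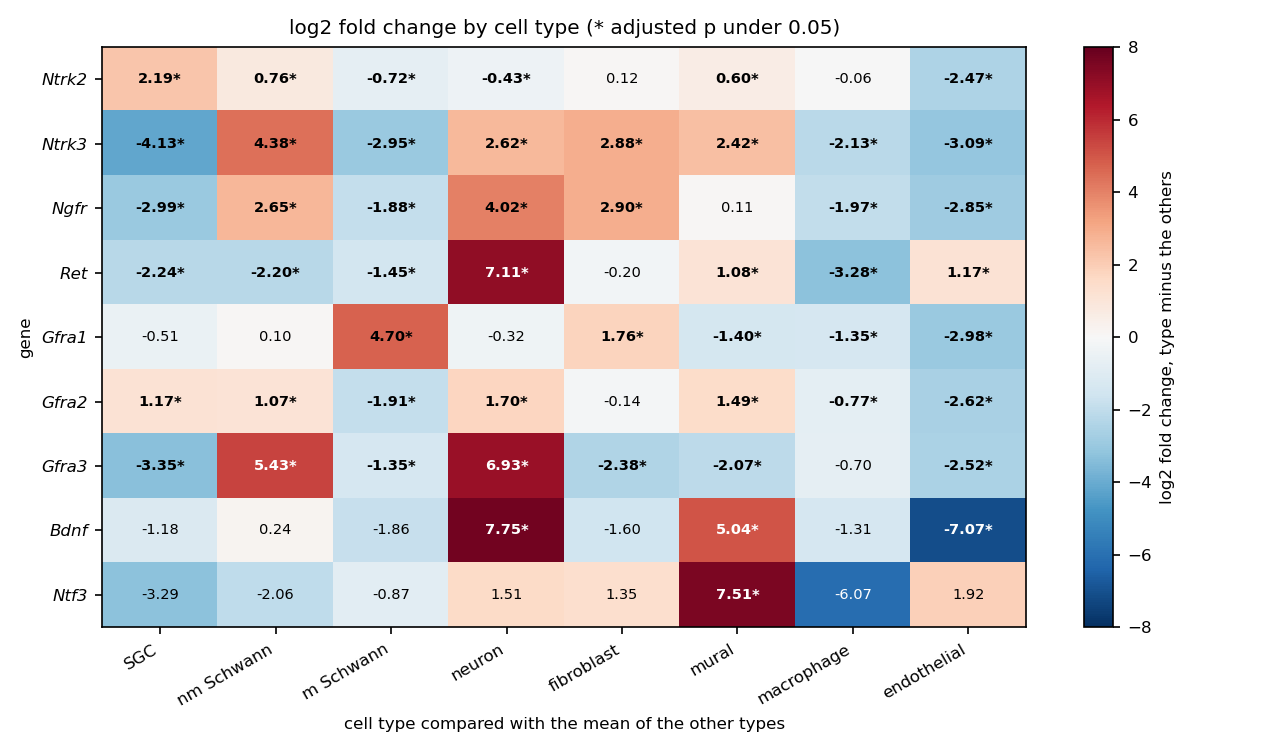
Log2 fold change of each gene in each cell type against the mean log2 level of the other 7 types, from edgeR. An asterisk marks an adjusted p under 0.05. Red is higher and blue lower; 24 cells of the grid are higher calls and 27 lower calls. Values for Bdnf and Ntf3 involve types with no UMI and depend on the small count edgeR adds.

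The cell types named here held clusters that differed in these genes. These are given as levels in CPM of each cluster's own total, with no test, since the clusters come from the same cells. Among the 6 SGC clusters, Ntrk2 was highest in a cluster led by 2900052N01Rik and Hes5 that also held Gm42418, at 790 and 865 CPM, and in the largest SGC cluster, led by 2900052N01Rik, Hes5 and Acsbg1, at 730.0 and 745 CPM. It was lowest in the clusters led by Dbi (430 and 417 CPM), by Lgr5 (433 and 447 CPM) and by Gm42418 (407 and 443 CPM). The samples of the upper pair of clusters did not overlap those of the lower 3. Fabp7 differed too, from 14584 and 14675 CPM in the largest cluster to 6075 and 6080 CPM in the one led by Dbi. Gfra2 was not ordered like Ntrk2, with 51.2 and 49.4 CPM in the largest SGC cluster and 71.1 and 67.7 CPM in that led by Dbi.

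The fibroblast clusters differed in Ngfr, Gfra1 and Ntrk2, and less in Ntrk3. In that led by Apod and Dcn (281 and 413 cells), Ngfr stood at 57.0 and 77.0 CPM, Gfra1 at 195 and 178 CPM and Ntrk2 at 315 and 299 CPM. In that led by Igfbp6 and Mgp (253 and 353 cells), Ngfr stood at 3.54 and 5.71 CPM, Gfra1 at 6.54 and 22.4 CPM and Ntrk2 at 73.3 and 66.4 CPM. Ntrk3 was present in both, at 139 and 170 CPM in the first and 175 and 185 CPM in the second. Bdnf was not found in the first cluster, from totals in which 3 UMIs are worth 0.882 and 0.555 CPM.

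The mural clusters differed in the ligands. The larger one, led by Rgs5, Acta2 and Myh11 (372 and 311 cells), held Ntf3 at 45.3 and 45.8 CPM and Bdnf at 11 and 13.9 CPM. The smaller one, led by Acta2 and Rgs5, had only 26 cells in each sample. It held no Ntf3 UMI, where 3 UMIs would have been 9.70 and 8.12 CPM, and Bdnf at 45.3 and 70.3 CPM, from 14 and 26 UMIs. Ntrk3 was 398 and 260 CPM in the smaller cluster and 99.9 and 112 CPM in the larger, while Ntrk2 was lower in the smaller, at 93.8 and 97.4 CPM against 265 and 276 CPM. Gfra2 was 9.70 and 5.41 CPM in the smaller and 84.6 and 89.9 CPM in the larger. Abcc9, a potassium channel subunit used as a pericyte marker, was 517 and 170 CPM in the smaller and 164 and 155 CPM in the larger, and Myh11, a smooth muscle myosin, 964 and 879 CPM against 1757 and 1801 CPM.

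**Figure D4:**
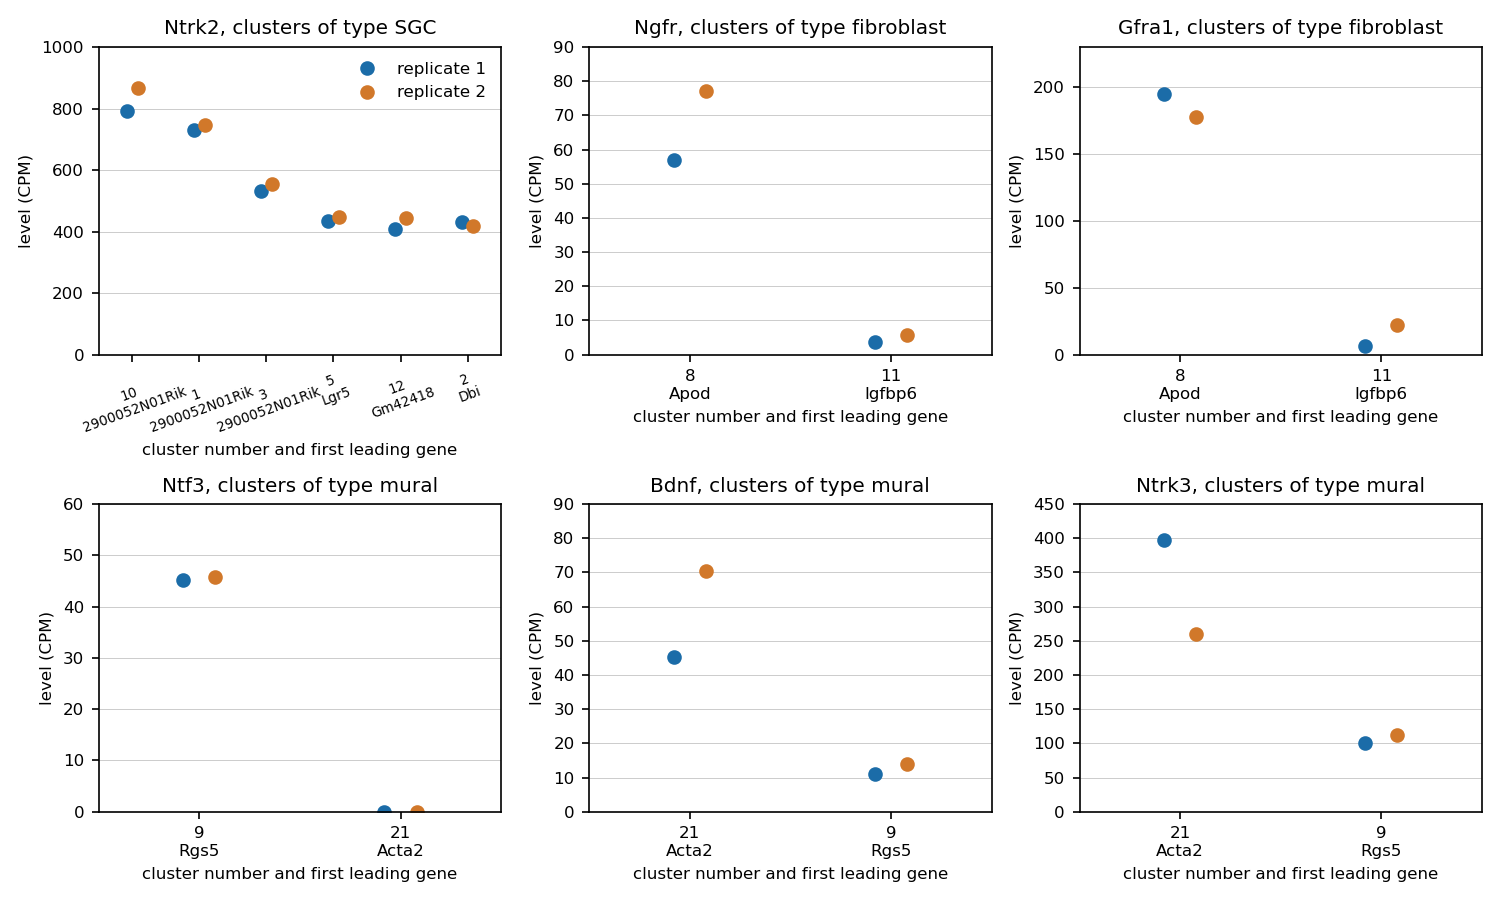
Levels in CPM of each cluster's own total, for the clusters within SGCs, fibroblasts and mural cells (blue replicate 1, orange replicate 2; clusters are named by their number and first leading gene). Ngfr and Gfra1 are high in the fibroblast cluster led by Apod and low in that led by Igfbp6; Ntf3 is absent from the smaller mural cluster (0 UMIs), where Bdnf (45.3 and 70.3 CPM) and Ntrk3 (398 and 260 CPM) are higher.

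Neurons were then split by depth, since the neurons that met the rule on shared barcodes were shallow. Some of them had a barcode with more than 20000 UMIs in the other sample. Ntrk2, Ntrk3, Gfra3 and Bdnf were higher above 20000 UMIs than below in both samples. The share of all genes ordered this way was not counted, so this is not read as particular to these genes. Gfra3 was 263 and 224 CPM in deep neurons against 92.2 and 137 CPM in shallow ones, and Bdnf 113 and 69.4 CPM against 53.1 and 51.4 CPM. Ret was not ordered by depth, with 182 and 221 CPM in deep neurons and 215 and 129 CPM in shallow ones. Fabp7 was 499 and 776 CPM in deep neurons and 930.2 and 2142 CPM in shallow ones, and the part of SGC RNA in these levels was not tested. Mrgprd, a receptor of non-peptidergic nociceptors, was 5.65 and 11.6 CPM in deep and 39.1 and 4.28 CPM in shallow neurons. These levels are a description with no test, because neurons of a sample are not replicates. Shallow neurons numbered 305 and 115, and their make-up differed between samples. Before the mitochondrial filter, the neuron cluster led by Fxyd2 and Prph (median 895.5 UMIs) had 217 and 27 cells. That led by Calca and Tac1 (median 738 UMIs) had 90 and 93. Their means of 718 and 893 genes per cell were under 1000, and both were kept because they were named. The part of this make-up in the levels by depth was not tested.

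The 104 deep neurons were compared cell by cell after each was thinned to 20000 UMIs. Ret was found in 39 of 53 (73.6%, 95% exact interval 59.7 to 84.7) and 42 of 51 (82.4%, 69.1 to 91.6), Gfra3 in 44 (83.0%) and 35 (68.6%), and Ntrk2 in 24 (45.3%) and 33 (64.7%). Ntrk3 was found in 26 and 26, Ngfr in 22 and 23, Bdnf in 25 and 17, Gfra2 in 15 and 20, and Gfra1 in 8 and 6. Ntf3 was found in none of the thinned cells, which allows a share of up to 5.66% and 5.88% with a UMI at this depth. Before thinning, 2 of the 104 held 12 Ntf3 UMIs. For scale, the macrophage gene C1qa was found in 1 neuron of each sample and the SGC genes Fabp7 and Kcnj10 in 41 and 45 and in 7 and 12. Genes of sensory neuron classes were uneven in these cells. Tac1 was found in 52 and 46, Trpv1 in 46 and 33, Calca in 39 and 35 and Nefh in 37 and 31. Scn10a was found in 24 and 17, Th in 13 and 21, P2rx3 in 10 and 9, Pvalb in 3 and 2 and Mrgprd in 1 and 2. The shares of the members are those of this set of neurons and not of all DRG neurons.

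Few cells carried a large share of some genes. Before thinning, 1 neuron held 43.3% of the 326 Gfra1 UMIs of the deep neurons and 2 held at least 50%. For Gfra2 5 neurons held 50% of 1044 UMIs, and for Ret 13 held 50% of 2263. Gfra3 was spread over more cells, with 50% of its 2752 UMIs in 21 neurons. The highest thinned Gfra1 count in a neuron was 3 UMIs in replicate 1 and 26 in replicate 2.

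Co-receptors were mostly found singly beside Ret. Of the 39 and 42 deep neurons with a Ret UMI, 28 and 31 held UMIs of exactly 1 of Gfra1, Gfra2 and Gfra3, 7 and 10 held 2 of them, and 3 and 1 held none. Of the 14 and 9 without a Ret UMI, 7 and 8 held exactly 1, 6 and 1 held 2, and none was without a co-receptor. Gfra2 and Gfra3 tended to lie in different cells: Gfra3 was found in 17 of 35 neurons with Gfra2 and in 62 of 69 without it, and Spearman's rho over the 104 cells was −0.56. Gfra2 was found in 29 of 52 neurons with Ntrk3 and in 6 of 52 without it (rho 0.47), and Gfra3 in 30 and 49 of them (rho −0.55). Calca, the gene of the peptide CGRP, was found in 24 of 52 with Ntrk3 and in 50 of 52 without it (rho −0.74). Tac1, another neuropeptide gene, was found in 52 of the 53 and 46 of the 51 deep neurons of the samples. The Calca counts are therefore not read as a split of neurons with and without peptides. Ntrk2 was found in 13 of 42 neurons with Bdnf and in 44 of 62 without it (rho −0.50). All 104 cells come from 2 libraries, and these values are descriptions.

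Some single neurons held both Ntrk2 and Ntrk3, but Ntrk3 was found less often with Ntrk2 than without it. Ntrk3 was found in 25 of 57 neurons with Ntrk2 and in 27 of 47 without it (rho −0.24). Ret was found in 46 of the 57 and in 35 of the 47 (rho 0.10), and in 36 of 52 neurons with Ntrk3 and 45 of 52 without it (rho −0.16). The SGC marker Fabp7 was found in 41 of 53 and 45 of 51 of these thinned neurons. The part of SGC RNA in their Ntrk2 counts was not tested.

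**Figure D5:**
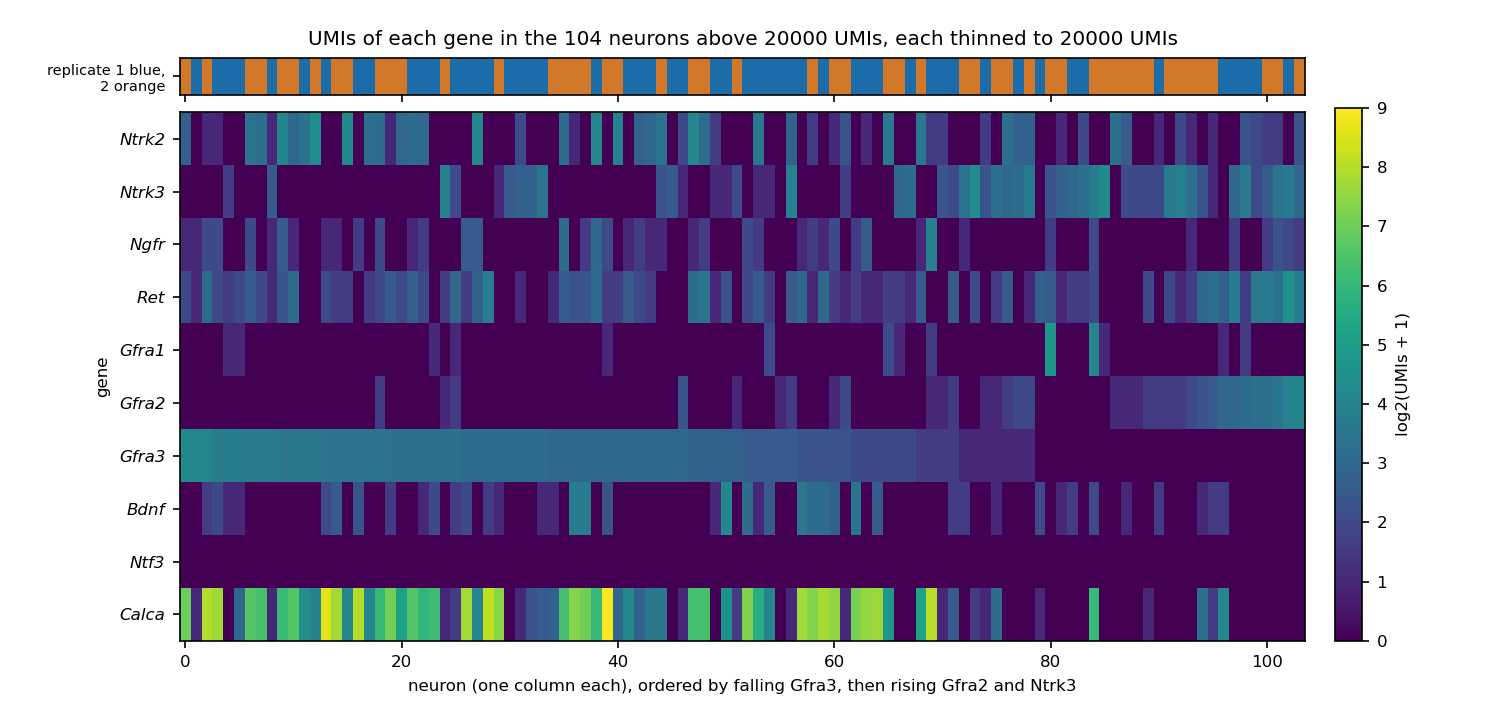
UMIs of each gene in the 104 neurons above 20000 UMIs, each thinned to 20000 UMIs and shown as log2(UMIs + 1), with Calca for comparison. Columns are neurons ordered by falling Gfra3, then rising Gfra2 and Ntrk3, and the bar above gives the sample. Gfra2 lies mostly at the right, where Gfra3 is low (17 of the 79 neurons with Gfra3 and 18 of the 25 without), and Ntf3 has no UMI in the thinned cells.

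Outside neurons, most cells with a co-receptor UMI had no Ret UMI. Of the 1247 and 1226 myelinating Schwann cells with a Gfra1 UMI, 8 and 9 also held a Ret UMI. Of the 139 and 230 non-myelinating Schwann cells with Gfra3, 1 and 2 did, and of the 2026 and 1956 SGCs with Gfra2, 19 and 20 did. In neurons of all depths, 48 of 67 and 44 of 59 cells with Gfra3 held Ret. Over all cells of both samples, a Ret UMI was found in 22 of 3326 myelinating Schwann cells (0.66%) and 5 of 1260 non-myelinating Schwann cells (0.40%). It was found in 66 of 7173 SGCs (0.92%) and 166 of 524 neurons (31.7%). The low shares in glia are therefore not read as particular to cells with a co-receptor. The cells compared differed in depth: neurons with Gfra3 had medians of 67716 and 50705 UMIs, myelinating Schwann cells with Gfra1 5690 and 6180 UMIs, non-myelinating Schwann cells with Gfra3 5297 and 5772.5 UMIs and SGCs with Gfra2 15611 and 16608.5 UMIs. The part of depth in these shares was not tested.

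A list of 38 other genes of these pathways gives the surroundings of the 9, and 34 were high enough to be tested. In neurons 18 were higher and 14 lower, against 35.6% and 32.4% of all genes, with a median log2 fold change of 0.76 against −0.040 over all genes. In fibroblasts 19 were higher and 7 lower, against 26.5% and 20.4%, with a median of 0.87 against −0.0059. In SGCs 13 were higher and 9 lower, against 30.2% and 24.9%, with medians of −0.026 and −0.0095. In mural cells 9 were higher and 8 lower, against 21% and 18.4%. Non-myelinating Schwann cells had 11 and 13, against 18.1% and 17.6%, and myelinating Schwann cells 9 and 16, against 25.9% and 25.5%. Macrophages had 7 and 15, against 26.9% and 21.1%, and endothelial cells 5 and 13, against 26.1% and 26.4%.

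Among ligands outside the 9, Gdnf was 6.20 and 2.05 CPM in mural cells, from 24 and 7 UMIs, and Nrtn, neurturin, 4.02 and 5.88 CPM in fibroblasts and 1.87 and 1.93 CPM in SGCs. Artn, artemin, was too low to be tested, with 2.32 and 2.05 CPM in mural cells. Ntf5 and Pspn were at most 0.293 CPM in any profile.

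Gfra4, the persephin co-receptor, stood at 27.6 and 28.1 CPM in neurons and 6.51 and 8.96 CPM in fibroblasts. Sorcs1, of the sortilin family of receptors, lay 3.15 above the mean of the other types in myelinating Schwann cells. It also lay above that mean in SGCs (2.05) and non-myelinating Schwann cells (1.93). Sorcs2 lay 2.44 above the mean in SGCs, 2.09 in non-myelinating Schwann cells and 1.87 in fibroblasts. Sorcs3 was found mostly in neurons (32.7 and 31.1 CPM) and fibroblasts (24.2 and 23.0 CPM). Ncam1, an adhesion molecule that also serves as a GDNF receptor, lay 2.56 above the mean of the other types in SGCs and 2.03 in non-myelinating Schwann cells. Among adaptors and targets in neurons, Vgf, a peptide precursor induced by neurotrophins, lay 6.86 ± 0.24 above and Dok4, an adaptor of RET, 4.78 ± 0.12 above the mean of the other types. Dusp6, a phosphatase that ends ERK signalling, lay 3.51 ± 0.21 below it, and Gab1, a docking protein, 2.37 ± 0.13 below. In SGCs Shc3, an adaptor, lay 3.18 ± 0.095 above it and Etv4, a transcription factor, 2.93 ± 0.14 above, and Plcg1, a phospholipase, lay 1.78 ± 0.12 below it and Dok4 1.58 ± 0.18 below.

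The genes whose levels ran most like each member over the 16 profiles are given as Pearson's r of log2(CPM + 1), where profiles share cell types and samples. For Ntrk2 they were Ndrg2 (0.961) and Ift57 (0.951), for Gfra1 Ptpdc1 (0.953) and 2810430I11Rik (0.922), and for Ret Sh3bgrl2 (0.986) and Rnf11 (0.984). For Gfra3 they were Car10 (0.979) and Tenm1 (0.975), for Bdnf AI593442 and Syt2 (0.984 each), and for Ntf3 Kcna5 (0.979) and Jph2 (0.972). For Ngfr they were Epb41l3 (0.935) and Prokr1 (0.929), and for Gfra2 Rbms3 (0.921) and B230217C12Rik (0.919). For Ntrk3 they were Gm9885 (0.925) and Opcml (0.921), and Gm9885 lies within Ntrk3 on the other strand. Among the members themselves, Ntrk3 and Ngfr were most alike (0.90), then Ret and Bdnf (0.85).

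In the mouse genome build GRCm38 (mm10), with GENCODE M21 genes, Ntrk2 lies at chr13:58806569-59133970 on the plus strand, Ntrk3 at chr7:78175959-78738012 on the minus strand and Ngfr at chr11:95568818-95587735 on the minus strand. Ret lies at chr6:118151745-118197718 and Ntf3 at chr6:126101412-126166910, both on the minus strand. Gfra1 lies at chr19:58235604-58455909 (minus), Gfra2 at chr14:70890120-70979838 (plus), Gfra3 at chr18:34689898-34720387 (minus) and Bdnf at chr2:109674700-109727007 (plus). UMIs of a 3′ kit come mostly from near 3′ ends, and whether reads in introns were counted is not given in the sources used here. Ntrk2 has coding transcripts of 821 codons and others of 476 codons that end at different 3′ ends, and Ntrk3 transcripts of up to 864 codons and 1 of 612. The gene counts used here add these forms together. Antisense genes that are also in the files overlap Ntrk2 (Gm47423 and 4930415C11Rik), Ntrk3 (4921513I08Rik and Gm9885), Gfra1 (Gm16277) and Bdnf (Gm45346), and whether the counting used strand is not given in the sources used here.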

How the data were processed

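The deposited values were counts: whole-number UMIs per gene and barcode, unfiltered, which the authors made with Cell Ranger 7.1.0 on the mouse build mm10, per the labels and the study's methods. Whether the counting used strand is not given in the sources used here. The members and gene lists were chosen with earlier results of these data known.

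Cells were called from the barcodes by a UMI cutoff and then a test against empty droplets (at least 500 UMIs, false discovery rate 0.01), and those over 300 genes were kept, 8799 and 8766 per sample, holding 90.1% and 86.5% of all UMIs. They were normalised and clustered with sctransform 0.4.2 and Seurat 5.3.0 (3000 variable genes without the members and the pathway list, 30 components, resolution 0.8). A simulated-doublet score called 2.57% and 2.61% of cells, and 41.5% and 39.8% of simulated doublets. Clusters mostly of doublets (1, with 178 cells) or with under 1000 genes per cell on average and no name (1, with 274 cells) were removed, and so were cells above 22.4% mitochondrial UMIs. A cluster was named from at least 3 markers among its 50 leading genes. No upper limit on UMIs was set, since it would remove large neurons.

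Counts were summed per sample and type into 16 profiles. edgeR 4.0.16 (R 4.3.3) fitted its quasi-likelihood test with TMM scaling to the 18036 genes that reached 10 counts in 2 or more profiles, for each type against the mean of the other 7 and for all 28 pairs of types, with Benjamini-Hochberg adjustment over all genes of a comparison. The mean of the other 7 types is the equally weighted mean of their log2 levels. Errors with a fold change are standard errors, and every adjusted p in the text is of this test unless another is named. Shares of cells were taken after thinning each cell to 1000 UMIs, which left out 220 and 77 neurons and at most 29 cells of any other type and sample, with exact Clopper-Pearson intervals at the 95% level and a floor of 3 counts for a count of 0. The edgeR and cell-calling steps were tested on simulated data. All 9 members were named, with ligands and receptors of the pathway list (some of its results are not reported here), its 2 adaptors or targets with the largest change in each direction in the type spoken of, and the 2 genes most like each member.

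Profiles with the same replicate number come from the same dissociated sample, so the numbers pair them. Their deviations from the type means correlated with a median of 0.064 (−0.0050 to 0.17) over 28 pairs of types, and 4 were over 0.1. The alternatives were DESeq2 1.42.0 as the test and as the scaling, no filter on low counts, the replicate block, other resolutions, other rules for types, doublets, neuron depth and empty-droplet RNA, and leaving out each replicate. Removing cells with shared barcodes, counting the cluster led by Pou3f1 as SGCs and keeping the doublet cluster were added after seeing the data.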

Additional observations from a re-analysis of the deposited data

Results flagged for a closer look

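In a cluster of 1454 cells that no list named, led by Pou3f1, and so outside the comparisons above, Gfra2 stood at 62.0 and 69.5 CPM, a mean of 65.75 CPM. It is given here because it is a signal in cells outside the main comparison that was above the level in empty droplets, 56.8 and 55.5 CPM. The margin was small, and no test was made.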

How the results depend on the processing

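Over 18 alternatives the members gave 21 to 24 higher calls (24 as reported), 18 to 30 lower calls (27) and 152 to 169 calls between pairs of types (162). With the replicate block these were 24, 27 and 168. The pathway list gave 76 to 94 higher calls (91) and 47 to 98 lower calls (95), the 47 with types from marker pairs, which left 1 sample with neurons. Of the 9 members, 4 were higher in deep neurons at every alternative, with no share over all genes counted. Likewise without that share, 8 (6 without thinning) had their highest share of cells in the type of their highest level. The direction turned with types from marker pairs for Ntrk2 in myelinating Schwann cells (0.17) and neurons (0.90), Ret in non-myelinating Schwann cells (1.22), Gfra1 in neurons (2.79) and SGCs (0.57), Gfra2 in fibroblasts (0.61), Ntf3 in neurons (−5.35) and Gfra3 in non-myelinating Schwann cells minus neurons (3.86). The same setting ended 13 calls against the other types and 2 between neighbours, and empty-droplet RNA subtracted ended 9 against the other types. The direction also turned with neurons up to 20000 UMIs for the last (0.00502) and for Ntrk2 in macrophages (0.0417), at resolution 0.4 for Ngfr in mural cells (−0.0151), with empty-droplet RNA subtracted for Ret in fibroblasts (1.69), with doublet cells removed for Gfra1 in neurons (0.0222) and with DESeq2 for Bdnf in non-myelinating Schwann cells (−0.0470). Leaving out each replicate of the type turned it for Ntrk2 in macrophages (−0.50 to 0.29), Ngfr in mural cells (−0.32 to 0.47), Gfra1 in neurons (−1.71 to 0.43) and non-myelinating Schwann cells (−0.45 to 0.45), and Ntf3 in endothelial cells (−5.13 to 3.01) and neurons (−1.05 to 2.45); the lone sample is then assumed to vary like the other types. The causes were not tested. The 2 samples limit precision, and neuronal values rest on few deep cells.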

Other observations

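The cluster led by Pou3f1, a transcription factor of Schwann cells, held Ntrk2 at 334 and 350 CPM, Gfra1 at 62.5 and 53.7 CPM and Ngfr at 4.18 and 8.04 CPM. Its Fabp7 level was 2185 and 2135 CPM. A second unnamed cluster, of 54 cells and led by Cd74, a gene of antigen-presenting cells, held Gfra2 at 49.6 and 45.9 CPM, from 23 and 32 UMIs, and Ntrk2 at 4.32 and 12.9 CPM, from 2 and 9 UMIs. Its Fabp7 level was 114 and 136 CPM.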
